A study of Rattus norvegicus with 9 samples.

Results

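The regulators of G-protein signalling (Rgs) measured here are 9 genes, Rgs2, Rgs4, Rgs7, Rgs8, Rgs9, Rgs10, Rgs12, Rgs14 and Rgs16, taken as every probe that the array files name for these genes, whatever its values. The genes themselves were chosen with earlier results of these data known. They are read by 10 probes, since Rgs4 has 2, out of 41012 probes for 35561 gene names or features. The samples are 9 one-colour arrays of dissociated cortical neurons from prenatal rats, used at 11 to 15 days in culture. All cultures had spent 48 h in tetrodotoxin (TTX), a blocker of voltage-gated sodium channels that silences action potentials. In 3 samples RNA was taken in the toxin (TTX), in 3 it was taken 15 min after washout (W15) and in 3 it was taken 45 min after washout (W45). The study asked which transcripts respond when activity returns. The same 3 washes are recorded for all 9 samples, TTX included. How and when the TTX samples were rinsed is not stated beyond that. The labels do not say whether replicates came from separate cultures, so p-values measure only the spread between these samples.

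G-protein-coupled receptors act through heterotrimeric G proteins, whose alpha subunit is active while it holds GTP. Rgs proteins share a domain that speeds the hydrolysis of that GTP and so ends the signal of the receptor. Small members such as Rgs2, Rgs4, Rgs8 and Rgs16 consist of little more than this domain, Rgs7 and Rgs9 work as complexes with the beta subunit Gnb5, and Rgs10, Rgs12 and Rgs14 act mainly on the Gi class, with added G-protein binding motifs in Rgs12 and Rgs14. Rgs2 and Rgs4 are long known as neuronal transcripts that can change with activity.

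The results turn on Rgs2 and Rgs4, so the starts of their array probes are shown, 30 of 60 bases each, to identify exactly what was measured. In the files' rn3 coordinates the Rgs2 probe lies at chr13:57905038-57905097, Rgs4 probe 1 at chr13:85548287-85548346 and Rgs4 probe 2 at chr13:85550968-85551027, all on the minus strand. The Rgs4 probes are separated by 2621 bases of the genome, with probe 1 further downstream in the direction of transcription. No annotation of that build was used here, so exon and untranslated positions are not given.
Rgs2: tgatgtagtcttaagaaaatcagatcacat
Rgs4 probe 1: ttgtacctgtactcccagactgctgtctca
Rgs4 probe 2: gacttctggatcagctgtgaggagtacaag

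The sequences upstream of Rgs2 and Rgs4 are shown as the regulatory context of the members with the greatest mean differences at 45 min. They are the 250 bases before the start that RefSeq annotates on the GRCr8 build, at chr13:58352667-58352916 for Rgs2 and chr13:84475885-84476134 for Rgs4, both read on the minus strand, the strand of each gene. Capitals mark TGACG, the core of the cAMP response element through which CREB acts, on either strand (read here as CGTCA), and the TATA box TATAAA of Rgs4.
Rgs2: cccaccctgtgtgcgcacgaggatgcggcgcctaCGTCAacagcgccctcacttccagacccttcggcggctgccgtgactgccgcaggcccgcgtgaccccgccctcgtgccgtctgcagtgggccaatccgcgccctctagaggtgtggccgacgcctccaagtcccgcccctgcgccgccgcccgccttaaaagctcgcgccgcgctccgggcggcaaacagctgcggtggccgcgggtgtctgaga
Rgs4: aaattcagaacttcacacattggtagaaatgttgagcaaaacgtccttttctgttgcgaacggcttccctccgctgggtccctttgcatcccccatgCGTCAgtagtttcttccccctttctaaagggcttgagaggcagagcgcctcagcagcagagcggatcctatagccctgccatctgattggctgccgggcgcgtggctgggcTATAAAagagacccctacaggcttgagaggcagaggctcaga

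A set of 6 motifs was searched on both strands of windows reaching from 250 bases before to 50 after the start, for all 9 genes and for all 33469 such windows in the RefSeq table. The core TGACG lay 216 bases before the start of Rgs2 and 153 bases before that of Rgs4, and in no other of the 9 windows. That is 22.2% of the Rgs windows, beside 21.2% of all windows, so the core was about as common among these genes as elsewhere. The full cAMP response element TGACGTCA, which contains the core, was in 1.83% of all windows, the Egr site GCGTGGGCG in 0.544% and the CArG box bound by SRF in 1.64%, and none of them matched in the 9 windows. The AP-1 site TGACTCA matched in Rgs12 alone (4.63% of all windows) and TATAAA in Rgs4 alone, 42 bases before its start (14.2% of all windows). A match is a string of letters and says nothing about binding.

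On the chromosomes, 5 of the 9 genes (Rgs2, Rgs4, Rgs7, Rgs8 and Rgs16) have their probes on rat chromosome 13, which holds 8 of the 17 genes named Rgs on the array. The Rgs8 and Rgs16 probes lie 42.2 kb apart there, and the nearest Rgs4 probe lies 51.9 kb from that of Rgs5. The neighbours outside the set were dim: Rgs1 and Rgs18 stood well above background on 0 of 9 arrays and Rgs5 on 1.

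Depending on the array, 72.4 to 77.9% of probes were marked as well above background, and the signal at the 75th percentile lay between 1456 and 2343. Values below are log2 signals minus that percentile of the same array, and levels of different probes are not comparable. Of the 10 Rgs probes, 9 passed the filter on dim probes, and no Rgs spot was saturated or marked as an outlier. The 7 activity genes Npas4, Fos, Junb, Egr1, Egr4, Arc and Nr4a1, which rise when neurons fire, were all called higher at 45 min, and 5 of them at 15 min. All 10 neuronal markers on the array stood above background on all 9 arrays, and so did 7 of 8 astrocyte and 8 of 8 oligodendrocyte-lineage markers, so the cultures held glial transcripts as well as those of the labelled neurons. The summed neuronal marker signal on a log2 scale was 7.76 to 8.04 in TTX, 7.75 to 8.19 in W15 and 7.72 to 8.11 in W45. In such bulk samples, fewer cells of a type and less RNA per cell cannot be told apart.

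**Figure D1:**
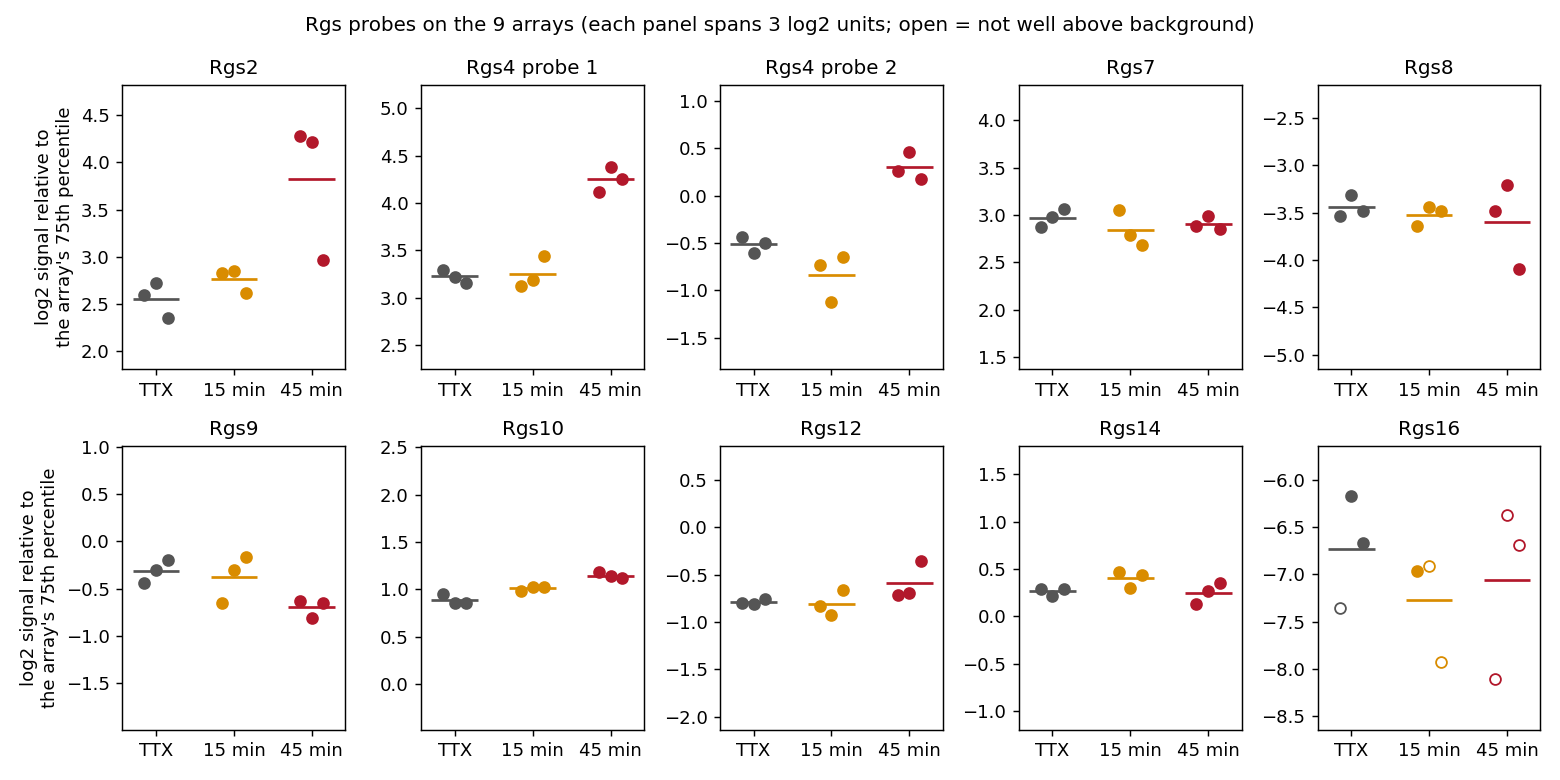
Log2 signal relative to the 75th percentile of the array for the 10 Rgs probes, with 1 point per array, a line at each group mean and the same span of log2 units in every panel. Both Rgs4 probes sit higher on all 3 W45 arrays than on any other array, Rgs2 does so by a wide margin on 2 of 3, and open points mark arrays on which the Rgs16 probe was not well above background.

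Rgs4, a small regulator of the Gi and Gq classes, read higher than in TTX on both probes 45 min after washout. Against TTX only probe 1 passed the test, at about 2 times its TTX level, with no detectable change at 15 min. That call held in 10 of 22 alternatives and was lost with replicate number as a block. Probe 1 read 3.29, 3.22 and 3.16 in TTX, 3.12, 3.18 and 3.44 in W15, and 4.12, 4.38 and 4.25 in W45. All 3 W45 arrays lay above all 6 others, while TTX and W15 overlapped. At 45 min against TTX the probe rose by 1.02 ± 0.13 on the log2 scale (SE, 3 arrays per group), a 2.03-fold change with a 95% interval of 1.65 to 2.51 and a limma adjusted p of 0.0209. It also rose against W15, with a 95% interval of 1.62- to 2.47-fold (adjusted p = 0.0293). Between TTX and 15 min the log2 difference was 0.02 ± 0.13 (adjusted p = 0.997), with an interval of 0.823- to 1.25-fold.

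Probe 2 of Rgs4, a dimmer probe, read -0.44, -0.61 and -0.50 in TTX, -0.74, -1.12 and -0.65 in W15, and 0.26, 0.46 and 0.17 in W45. Again all 3 W45 arrays were above the other 6, and the 3 W15 arrays were below the 3 TTX arrays. The rise from 15 to 45 min passed the test, at 2.19-fold (95% interval 1.72 to 2.79, adjusted p = 0.0323). The difference at 45 min against TTX was 1.76-fold (1.38 to 2.24) and did not pass (adjusted p = 0.155). At 15 min the log2 difference from TTX was -0.32 ± 0.16, which did not pass either (adjusted p = 0.973).

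Both Rgs4 probes pointed the same way at 45 min. Probe 1 minus probe 2 was 3.74, 3.83 and 3.65 log2 units in TTX, 3.86, 4.30 and 4.09 in W15, and 3.86, 3.92 and 4.08 in W45. The mean was 0.34 larger in W15 than in TTX and 0.21 larger in W45 than in TTX, with no overlap of the arrays in either case. With 3 arrays per group the smallest exact permutation p is 0.1, so a change in this distance could not pass that test, and no other test of it was run.

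The fold of Rgs4 was steadier than its call. Slide 2 held only TTX arrays, so the comparison with TTX is partly confounded with slide. Within slide 1, with 1 array per group and no test, the log2 difference of probe 1 at 45 min was 0.83 against TTX and 0.68 against W15, and with slide as a fixed block it was 0.99 against TTX (adjusted p = 1) and did not pass against W15 (adjusted p = 0.151). Within slide 3, with 2 arrays in each washed group, probe 1 was 1.16 higher at 45 than at 15 min (adjusted p = 0.316) and probe 2 was 1.24 higher (adjusted p = 0.369). Leaving out single arrays gave 0.96 to 1.09 against TTX (adjusted p 0.0193 to 0.166), and the call was lost without any 1 TTX array, W15 replicate 2 or W45 replicate 2. With replicate number as a block, no Rgs4 probe was called at 45 min. The limma adjusted p of probe 1 was then 0.0679 against TTX and 0.0954 against W15, and that of probe 2 was 0.103 against W15. Under all alternatives tried, probe 1 at 45 min against TTX lay between 0.76 and 1.18, with its direction kept in 23 of 23 cases. It was called in 10 of the 22 that gave a test. The alternatives reuse the same arrays. With every W45 array above every TTX array, leaving out single arrays could not turn the sign. The count of kept directions is therefore no separate support.

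Rgs2, which acts chiefly on the Gq class and in rodents is induced by neuronal activity, had the greatest mean difference of the set at 45 min against TTX but did not pass the test, and 1 of its W45 arrays stood apart. It read 2.60, 2.72 and 2.35 in TTX, 2.83, 2.85 and 2.61 in W15, and 4.28, 4.21 and 2.96 in W45. W45 replicates 1 and 2 stood far above every other array, and replicate 3 lay only just above the highest W15 array. The mean was 2.40-fold higher in W45 than in TTX (95% interval 1.47 to 3.90, unadjusted p = 0.00276, limma adjusted p = 0.397) and 2.08-fold higher than in W15 (1.28 to 3.38, adjusted p = 0.643). In absolute log2 difference from TTX, 0.363% of all 30322 probes tested exceeded Rgs2 at 45 min. Without W45 replicate 3 the log2 difference was 1.69 against TTX (adjusted p = 0.00394) and 1.48 against W15 (adjusted p = 0.0101), with the remaining W45 arrays pooled with the other groups for the spread. That array was the low one for Rgs2, so the smaller p follows from which array was dropped and is no support. Of the 9 fits that each left out 1 array, Rgs2 was called in 1 in each of these comparisons. Without W45 replicate 2 its limma adjusted p against TTX was 0.825. With replicate number as a block the log2 difference of Rgs2 from TTX was 1.26 (adjusted p = 0.228). With slide as a fixed block it was 1.38 and not called. Within slide 3 Rgs2 was 0.75 higher at 45 than at 15 min (adjusted p = 0.711). At 15 min the difference from TTX was 0.21 ± 0.31 (adjusted p = 0.979), and its interval of 0.709- to 1.88-fold leaves room for a change in either direction.

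The array that was low for Rgs2 was also the lowest of the W45 arrays for Rgs4 probe 2 and for most activity genes, but not for Rgs4 probe 1. On the W45 arrays 1, 2 and 3, the Rgs2 signal was 1.72, 1.66 and 0.41 log2 units above its TTX mean, Rgs4 probe 1 was 0.90, 1.15 and 1.03 above, and Rgs4 probe 2 was 0.78, 0.97 and 0.69 above. The median rise of the 7 activity genes on the same arrays was 5.58, 5.47 and 4.93. Replicate 3 was the lowest of the 3 arrays for 6 of these 7 genes and still rose by at least 4.07 for each of them. Replicate 3 also had the lowest share of probes well above background of all arrays, at 72.4%. Its correlations with W45 replicates 1 and 2 over the kept probes were 0.9836 and 0.9863, beside 0.9883 between those. The part of this array in the Rgs2 result was not tested beyond leaving it out.

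**Figure D2:**
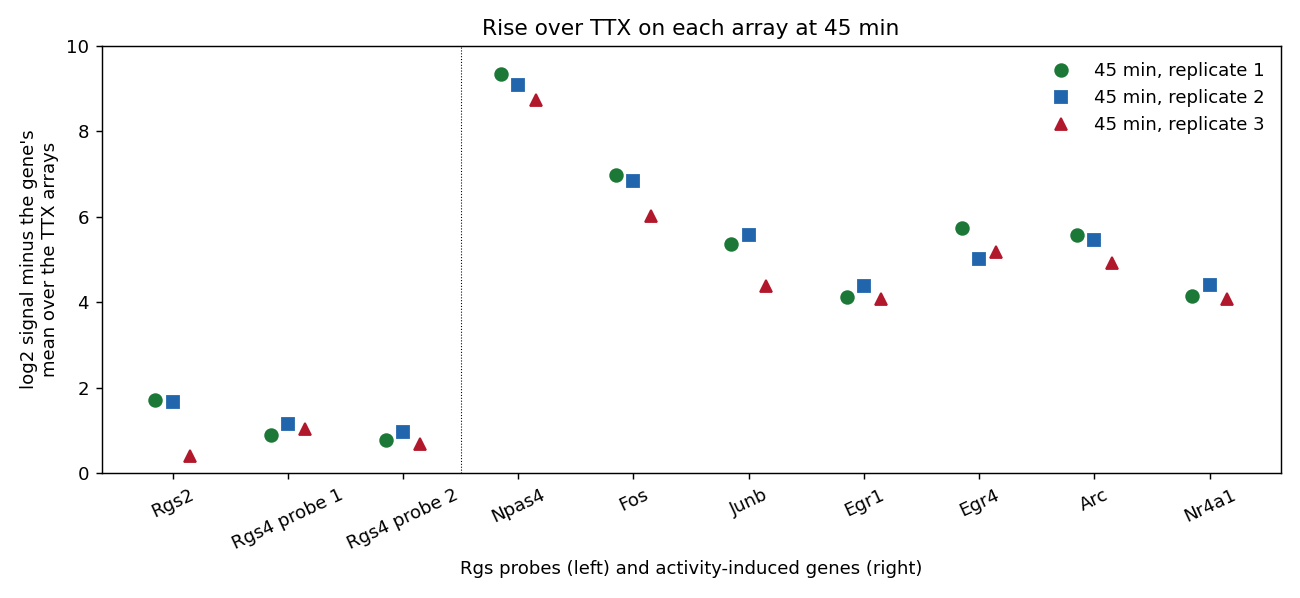
Log2 signal minus the TTX mean of the same probe on each of the 3 W45 arrays, for Rgs2 and both Rgs4 probes on the left and 7 activity genes on the right. Rgs2 was 1.72 and 1.66 on replicates 1 and 2 and 0.41 on replicate 3, while Rgs4 probe 1 lay between 0.90 and 1.15.

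The other small members gave no call. Rgs8, which in brain acts on Gi and Gq signalling, was dim, with -3.44 ± 0.11 in TTX (mean ± SD, n = 3), -3.52 ± 0.10 in W15 and -3.59 ± 0.45 in W45. The W45 arrays, at -3.48, -3.21 and -4.09, overlapped the other groups and spread more widely, and replicate 3 was again the lowest. Its difference from TTX at 45 min was -0.15 ± 0.21 (adjusted p = 0.938), with an interval of 0.650- to 1.25-fold. Rgs16 was well above background on 2 TTX, 1 W15 and 0 W45 arrays, and so was not tested. Its probe read -7.35, -6.17 and -6.67 in TTX, -6.97, -6.91 and -7.93 in W15 and -8.11, -6.37 and -6.69 in W45, with overlap of all groups. With 2 of the 3 W45 arrays reading above the TTX mean, no fold or direction is given.

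Rgs7 and Rgs9, the partners of Gnb5, did not pass the test in any comparison. Rgs7 read 2.97 ± 0.10 in TTX, 2.84 ± 0.19 in W15 and 2.91 ± 0.07 in W45 (SD, n = 3 each), with overlap of all groups. Its interval at 45 min against TTX was 0.774- to 1.18-fold (adjusted p = 0.960). Rgs9, best known for its striatal and retinal forms, read -0.44, -0.31 and -0.20 in TTX, -0.65, -0.30 and -0.17 in W15 and -0.63, -0.81 and -0.65 in W45. The 3 W45 arrays were below the 3 TTX arrays, and W15 overlapped both. The difference at 45 min was -0.38 ± 0.15 on the log2 scale (0.768-fold, unadjusted p = 0.0340, adjusted p = 0.754), the only such downward separation from TTX among the Rgs probes at that time. Gnb5 itself differed from TTX by -0.06 ± 0.14 at 45 min (adjusted p = 0.963), and Gpr158, a membrane anchor of Rgs7, by 0.13 ± 0.18 (adjusted p = 0.938).

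Among the genes acting on the Gi class, Rgs10 showed small ordered differences that did not pass the test. It read 0.95, 0.85 and 0.86 in TTX, 0.98, 1.03 and 1.02 in W15 and 1.18, 1.14 and 1.12 in W45. All W15 arrays were above all TTX arrays, and all W45 arrays were above all W15 arrays. The difference at 45 min against TTX was 0.26 ± 0.11, or 1.20-fold (95% interval 1.01 to 1.42, unadjusted p = 0.0383, adjusted p = 0.758), and it was near 0 without scaling between arrays (-0.0031) and with normexp background correction (0.0074). Rgs10 is well known from microglia. Of 10 microglial markers, 4 stood above background on all arrays (Cd68, C1qb, Tyrobp and Cd14), while Aif1 and Cx3cr1 did so on 0 of 9. Ptprc did so on 3 TTX, 2 W15 and 3 W45 arrays, and Itgam on 0, 0 and 1. The summed microglial signal was -1.13 to -0.80 log2 units in TTX, -0.93 to -0.90 in W15 and -1.48 to -0.83 in W45. Of the 7 microglial markers tested, 6 were higher than in TTX at 15 min (median log2 difference 0.12) and 5 at 45 min (median 0.18), with 0 called by limma. Cd68 (-0.71 ± 0.29) and Csf1r (-0.09 ± 0.57) were lower at 45 min, and that of Cd68 was the largest difference of the 7 at that time. C1qa (well above background on 0 TTX, 3 W15 and 0 W45 arrays) and Csf1r (2, 3 and 2) passed the filter on dim probes only through W15. The 15 min count was therefore partly set by that filter. The part of microglial transcripts in the Rgs10 values was not tested.

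Rgs12, a multidomain scaffold, was at -0.79 ± 0.03 in TTX, -0.81 ± 0.13 in W15 and -0.58 ± 0.20 in W45 (SD, n = 3 each). Its W45 arrays, -0.71, -0.69 and -0.35, were just above the TTX arrays, and replicate 3 was the highest. The difference of 0.20 ± 0.14 did not pass (adjusted p = 0.845). Rgs14, a suppressor of plasticity in mouse hippocampal area CA2, read 0.29, 0.22 and 0.29 in TTX, 0.47, 0.30 and 0.44 in W15 and 0.13, 0.26 and 0.35 in W45. Its W15 arrays were above its TTX arrays, by 0.14 ± 0.12 in the mean (adjusted p = 0.973), and its W45 arrays overlapped TTX, with a difference of -0.02 ± 0.12 (adjusted p = 0.991).

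**Figure D3:**
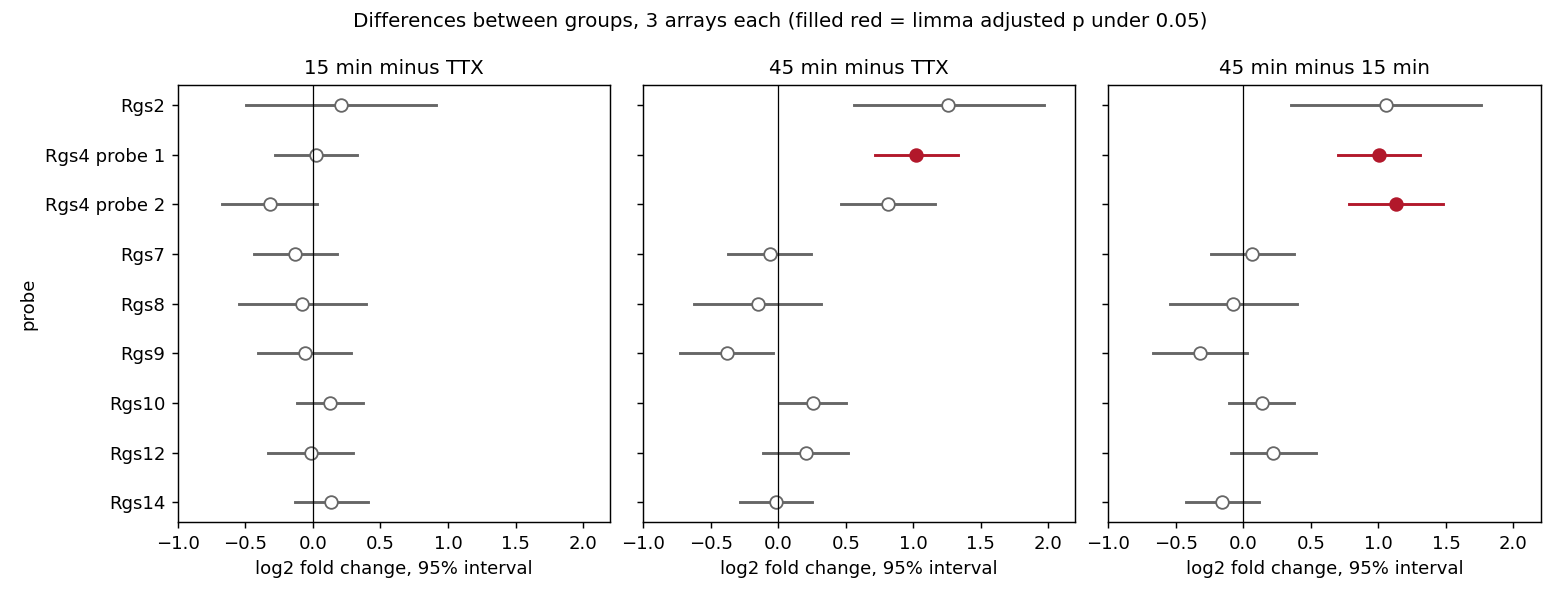
Log2 fold changes with 95% intervals from limma for the 9 tested Rgs probes in the 3 comparisons, 3 arrays per group, with calls at an adjusted p under 0.05 filled in red. Probe 1 of Rgs4 is called in both comparisons at 45 min (1.02 against TTX) and probe 2 against W15 (1.13), while the interval of Rgs2 is the widest. The fit has no replicate block, and with that block no Rgs probe is called.

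Counted over the set at 15 min against TTX, 0 of 9 probes were called by limma and 0 had an unadjusted p under 0.05, where 0.0198% of all tested probes were called in either direction and 3.52% had an unadjusted p under 0.05. The arrays did not overlap and were higher for 2 probes (Rgs10 and Rgs14) and lower for 1 (Rgs4 probe 2), beside 10% and 4.35% of all probes. The median log2 difference was -0.02 over the Rgs probes and 0.05 over all probes.

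At 45 min against TTX, 1 of 9 was called higher and 0 lower, where 0.171% of all probes were called higher and 0.0198% lower, and 5 had an unadjusted p under 0.05 (6.48% of all probes). The arrays did not overlap and were higher for 5 probes (Rgs2, both Rgs4 probes, Rgs10 and Rgs12) and lower for 1 (Rgs9), beside 8.4% and 3.52% of all probes. The 2 Rgs4 probes read the same gene and are not separate observations of the family. The median was 0.20 over the Rgs probes and 0.05 over all probes.

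At 45 against 15 min, 2 of 9 were called higher, both of Rgs4, and 0 lower, where 0.119% of all probes were called higher and 0.00989% lower. The arrays did not overlap and were higher for 4 probes (Rgs2, both of Rgs4 and Rgs10) and lower for 0, beside 3.99% and 4.07% of all probes. Unadjusted, 3 had a p under 0.05 (6.66% of all probes), and the median was 0.14 over the Rgs probes and 0.0023 over all probes. The comparisons share their arrays, so their counts are not independent of each other.

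The partners and targets of these regulators were counted in the same fit, from 6 lists with 100 tested genes. In each of the 3 comparisons 0 of the 100 were called by limma, and none differed by more than 1 log2 unit. At an unadjusted p under 0.05 stood 2 of the 100 genes at 15 min against TTX, 8 at 45 min against TTX and 3 at 45 against 15 min, beside 3.52%, 6.48% and 6.66% of all probes, so these shares were near or under the background. Their median log2 difference was 0.0035 at 15 min against TTX, 0.066 at 45 min against TTX and 0.042 at 45 against 15 min, beside 0.05, 0.05 and 0.0023 over all probes.

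Among the 13 G alpha subunits tested, the substrates of Rgs proteins, Gnai2 had the greatest difference at 45 min, -0.65 ± 0.14 against TTX (adjusted p = 0.249) and -0.65 ± 0.14 against W15 (adjusted p = 0.263), and Gna12 was next against TTX at 0.31 ± 0.16. Of the 14 beta, gamma and Rgs-partner genes, Gng10 (-0.43 ± 0.17) and Gnb3 (-0.41 ± 0.49) differed most at that time. Of the 14 tested genes among the other RGS-domain genes, Rgs6 (0.32 ± 0.13) and the sorting nexin Snx14 (0.29 ± 0.18) differed most.

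Of 18 effectors of Gq and Gi, the phospholipases C Plcb1 (0.26 ± 0.18) and Plcb3 (-0.25 ± 0.16) differed most at 45 min from TTX. Of 31 receptors coupled to Gq or Gi, these were the neuropeptide Y receptor Npy1r (0.56 ± 0.25, adjusted p = 0.765) and the somatostatin receptor Sstr2 (0.54 ± 0.16, adjusted p = 0.602). Of 10 further regulators of G proteins or their receptors, Pdcl, a phosducin-like chaperone of beta subunits, was at -0.54 ± 0.21 and the arrestin Arrb1 at 0.32 ± 0.21.

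The profiles nearest to that of Rgs4 probe 1 were sought over the 9 arrays among 12754 named probes, each taken relative to its own TTX mean. Spry1, a feedback inhibitor of receptor tyrosine kinase signalling, was nearest, with a root mean square difference of 0.129 log2 units. It was 1.01 above TTX at 45 min (adjusted p = 0.0763) and -0.09 at 15 min. Fbxo33, an F-box protein of ubiquitin ligases, followed at 0.176, and rose by 1.15 at 45 min (adjusted p = 0.0397). Chrne, the epsilon subunit of the muscle nicotinic receptor, and the polarity protein Pard6a were next at 0.180 and 0.188, with 0.79 and 0.80 at 45 min. Likeness of profile is a description of these 9 arrays, and the genes share the arrays and their scaling.

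**Figure D4:**
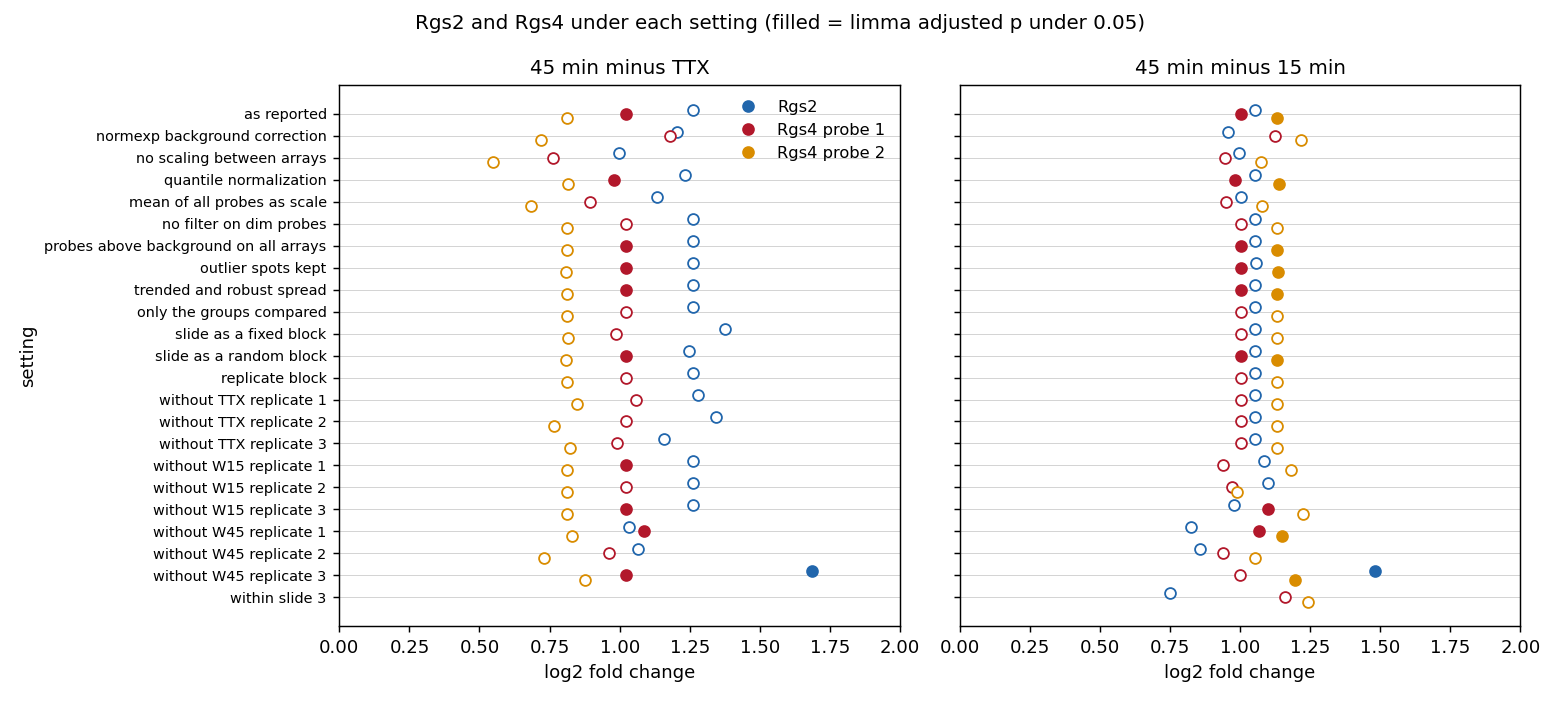
Log2 fold change of Rgs2 (blue), Rgs4 probe 1 (red) and Rgs4 probe 2 (orange) at 45 min against TTX (left) and against 15 min (right) under each setting, filled where the limma adjusted p was under 0.05. All points lie above 0, Rgs2 is called without W45 replicate 3 only, and Rgs4 moves in and out of the call while its log2 fold changes lie between 0.55 and 1.24.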

How the data were processed

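Total RNA of 9 rat neuron samples was labelled with Cy3 and hybridised to Agilent rat arrays (1 colour). Per the file headers, the deposited spot intensity is the processed signal of Agilent's Feature Extraction 9.5.3.1, named as 9.5 in the submitters' processing notes, background-subtracted and detrended. The authors' combined file holds equal intensities and was used only to check them. The alternative without scaling used the intensities handled as below, apart from the scaling. Probe positions are those of rn3 in the files.

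Of 45018 spots, 1639 controls were left out, outlier spots were set to missing and spots of a probe were averaged. The log2 intensity minus the array's 75th percentile was analysed. A probe was kept if some group had it well above background on each of its 3 arrays and at most 1 array was missing (30322 of 41012). All 9 arrays were fitted with limma 3.58.1 in R 4.3.3, with a mean per group, two-sided moderated tests and Benjamini-Hochberg adjustment over all kept probes, and probes with an adjusted p under 0.05 were called. The fit was also run on simulated arrays with known changes, drawn independently for each probe and array, without slide or replicate effects. Such a simulation cannot show how the fit behaves where those effects are present. The number of arrays limits the precision.

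Genes were counted by name in the files, without the suffixes _predicted and _mapped. All 9 Rgs genes matched the RefSeq promoter windows of GRCr8. The members and gene lists were chosen with earlier results of these data known, and the motifs after the values were seen. A listed gene outside the Rgs set was read by its brightest kept probe. All Rgs probes are described. Of each other list, called members are named and otherwise up to 2 with the largest absolute log2 difference at 45 min against TTX, plus Gnb5 and Gpr158 as partners, chosen after seeing the values, and the 4 profiles nearest to the called Rgs4 probe. Slides were read from the barcodes: slide 1 held TTX 1, W15 3 and W45 1, slide 2 held TTX 2 and 3, and slide 3 held W15 1 and 2 and W45 2 and 3. The alternatives changed background correction, scaling, filter, probe choice, spread, samples, slide and replicate block. Figures used matplotlib 3.10.9 in Python 3.11.15.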

Additional observations from a re-analysis of the deposited data

How the results depend on the processing

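At 45 min against TTX, the 1 called Rgs probe (Rgs4 probe 1) became 0 with normexp background correction, no scaling between arrays, the mean of all probes as scale, no filter on dim probes, only the groups compared, slide as a fixed block and the replicate block, and ranged from 0 to 2 when single arrays were left out (2, with Rgs2, without W45 replicate 3, and 0 without any 1 TTX array, W15 replicate 2 or W45 replicate 2). At 45 against 15 min, the 2 calls became 0 under the same settings and within slide 3, became 1 when each gene kept its brightest probe, and ranged from 0 to 2 without single arrays (0 without any 1 TTX array, W15 replicate 1 or 2 or W45 replicate 2, and 1 without W15 replicate 3). Leaving out W45 replicate 3 gave 2 calls (Rgs2 and Rgs4 probe 2, since Rgs4 probe 1 then had an adjusted p of 0.0568). At 15 min against TTX, 0 Rgs probes were called under any alternative run. The cause of these changes was not tested. Rgs4 probe 1 at 45 min against TTX had an adjusted p of 0.229 with normexp, 0.355 without scaling and 0.00314 with a trended and robust spread. Replicate numbers were not taken to pair the samples, since the labels name no shared source. The deviations of same-numbered arrays from their group means were all positively correlated (0.0599 to 0.382), with 7 of 9 pairs over 0.1. In 18 of 18 cases an array correlated best with the same number in another group. The labels do not state such pairing, so the fit with a replicate block is given beside the reported one, and it called no Rgs probe. With the replicate block, Rgs4 probe 1 had 1.02 against TTX (adjusted p = 0.0679) and an adjusted p of 0.0954 against W15, and probe 2 had 0.103 against W15. No Rgs value that was called turned its sign, but the alternatives reuse the same arrays, so this is no separate support. Over all probes, the calls ranged from 0 to 10 at 15 min (6 as reported), 25 to 214 at 45 min against TTX (58) and 0 to 238 at 45 against 15 min (39), with the highest counts of both 45 min comparisons without W45 replicate 1 (90 higher and 124 lower against TTX, where 52 and 6 were reported). The median of all probes at 45 min against TTX moved from 0.05 to 0.13 with normexp background correction and to -0.22 without scaling. Signal over background limits Rgs16 and, less so, Rgs8.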
